A study of Mus musculus with 21 samples.

Results

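Immediate early genes are transcripts that cells make quickly, without new protein synthesis, when a growth factor, a cytokine or a stress reaches them. The 38 genes described here were chosen by name: FOS and JUN proteins and their ATF and MAF partners, the EGR, KLF and NR4A transcription factors, the IER proteins, the DUSP phosphatases, the ZFP36 RNA-binding proteins, inhibitors in the NF-κB pathway, and further early response genes. All 38 were found by symbol among the 26852 genes of the deposited expression table. Of these, 37 were among the 12976 genes tested. Dusp2, a phosphatase of MAP kinases, lay below the filter on low values, at 1.94 to 3.20 in the 21 libraries, and was not tested.

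RNA sequencing had been performed on Nes low mesenchymal cells of the bone marrow of NSG mice, an immunodeficient strain without functional lymphocytes, here with a Nestin reporter. The mice were 8 to 12 weeks old when they received human AML cells without conditioning, and the AML lines HL60 and ML1 had been made to release a lipid-permeable mCherry protein. Early in the disease, niche cells that had taken up mCherry near AML cells (ch+) were sorted apart from those that had not (ch-), and late in the disease Nes low cells were sorted without this marker. The libraries comprised 3 from mice without AML (ctrl), 6 early ch-, 6 early ch+ and 6 late, with 3 from HL60 and 3 from ML1 mice in each leukemic group. In all groups the bones were digested at 37 °C with collagenase and dispase before and again after crushing, for 30 min each by the labels and 20 min each by the methods of the paper. Blood cells were removed with magnetic beads. According to the paper, the remaining cells were stained for human and mouse CD45, Ter119 and CD31 before they were sorted by FACS. Both AML models are established cell lines in a host with little immunity, so the cells describe a niche without a normal immune response.

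FOS and JUN proteins bind DNA as dimers called AP-1, which ATF3 and the small MAF proteins can join or compete with, and EGR, KLF and NR4A proteins are further transcription factors induced in the same wave. Their genes are switched on by MAP kinases through serum response factor and CREB, and are switched off again by DUSP phosphatases, by ZFP36 proteins that shorten the life of transcripts, and by the inhibitors IκBα and A20. In bone, AP-1 takes part in the differentiation of osteoblasts, and in many tissues these genes are known to respond to warm enzymatic digestion. No cells isolated without digestion and sorting were analysed here, so the part of the isolation in the levels below was not tested.

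Expression values are the levels that the authors deposited, read here as regularized log2 values because they run from −2.33 to 22.44. The methods of the paper speak of a log10 transformation, and the scale is stated nowhere in the labels. Levels are compared between libraries and not between genes, because transcript length is not taken into account. A difference is the mean of the group named first minus that of the other, on the log2 scale, and is given ± its standard error. It was tested with limma, and genes with a Benjamini-Hochberg adjusted p under 0.1 are described as higher or lower. The sequencing depth of each library is unknown. Libraries are named by group and by the number in their title. Nothing in the labels says whether these numbers are separate mice, so p-values measure the spread between libraries only. According to the paper, ch+ and ch- cells came from the same marrows, but the labels do not say which libraries belong together, so every test between them is unpaired. The labels give no dates either, so the day of collection cannot be told apart from the AML line or from the stage. They call the treatment of the ML1 late libraries unengrafted, whereas title and time point place them at the late stage, where they were kept. Counts of late members and lists against ctrl are therefore also given for HL60 alone, and late differences without a line named are pooled.

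The sort was checked by marker genes. Nes averaged 7.39 in ctrl, 7.30 in late, 7.30 in ch+ and 7.32 in ch-. The mesenchymal markers averaged 11.16 in ctrl, 12.03 in late, 11.70 in ch+ and 11.47 in ch-. The extraction text of the labels speaks of endothelial cells sorted by CD31. Pecam1, which encodes CD31, averaged 5.59 in ctrl, 4.87 in late, 5.74 in ch+ and 5.54 in ch-, and the lymphoid markers averaged −0.95 in ctrl. No endothelial libraries were analysed here, so the values do not settle that label. The chondrocyte markers averaged 11.49 in ctrl, 8.78 in HL60 late and 6.96 in ML1 late, so that the ML1 late libraries with the doubtful label stood further from ctrl than HL60 late.

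In early cells without mCherry (ch-), a few members were higher than in ctrl, and each of these calls was lost without at least 1 of the ctrl libraries. Levels of 4 members, Fos, Maff, Klf2 and Ier5, were higher in ch- and 0 were lower by limma, beside 1.13% and 0.786% of all genes tested and 1.92% in either direction. Of the 37 members, 11 (29.7%) had an unadjusted p under 0.05, beside 11.9% of all genes tested. The median difference of the members was 0.33, beside 0.01 for all genes tested, and 32 of 37 differences were positive. In 11 members every ch- library exceeded every ctrl library, beside 3.27% of all genes tested, and in 0 members every ch- library lay below, beside 2.43%. When each library was rescaled to the same total, only 1 member was higher, while the median was 0.26 for the members and −0.06 for all genes. Without the ribosomal RNA gene in the totals, 3 members were higher, and these medians were 0.28 and −0.04. By line, sharing the same ctrl, 7 members were higher and 0 lower in HL60 ch-, beside 0.894% and 0.678% of all genes tested and 1.57% in either direction. In ML1 ch-, 4 were higher and 0 lower, beside 1.42%, 0.925% and 2.34%. Without ctrl 373, the lowest ctrl library for Fos (13.05), Maff (4.30) and Ier5 (7.92), with 8.02 for Klf2, the pooled count fell from 4 to 0, while the differences were 0.45 for Fos, 1.55 for Maff, 0.71 for Klf2 and 1.00 for Ier5, beside 0.52, 1.80, 0.79 and 1.13 with all libraries. Without ctrl 375 the calls of Fos (13.23), Klf2 (7.97) and Ier5 (8.15) were lost too, and that of Fos also without ctrl 374 (13.32), ML1 ch- 544 (13.96) or ML1 ch- 546 (13.89). Of the calls by line, only Ier5 in HL60 and Fos and Jun in ML1 were kept whichever library was left out.

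In early cells with mCherry (ch+), few members differed from ctrl, in both directions. In ch+, 1 member was higher (Maff) and 3 were lower (Fosl2, Nr4a2 and Nfkbiz), beside 3.41% and 2.75% of all genes tested and 6.17% in either direction. The median difference from ctrl was 0.07, beside 0.01 for all genes tested. No overlap between the libraries of both groups was seen for 1 member that was higher and 3 that were lower, beside 4.16% and 3.90% of all genes tested. By line, 2 members were higher and 0 lower in HL60 ch+, beside 2.87% and 2.46% of all genes tested and 5.33% in either direction. In ML1 ch+, 1 was higher and 5 lower, beside 3.47%, 3.22% and 6.69%. Dusp1 in HL60 and Btg2 in ML1 kept this call whichever library was left out.

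Blood cell and mitochondrially encoded transcripts differed between ctrl and both early groups. Of the myeloid markers, 9 of 10 were higher in ch- and 10 of 10 in ch+ than in ctrl, and 0 of 10 differed between ch+ and ch- by limma. Their summed level ranged over 10.75 to 11.77 for ch- libraries and 10.33 to 11.62 for ch+, beside 8.18 to 9.38 for ctrl and 7.04 to 8.14 late. Lyz2 averaged 7.93 in ctrl, beside 9.21 for ch-, 8.96 for ch+ and 6.78 late. Of the red cell markers, 7 of 8 were higher in ch- and 8 of 8 in ch+ than in ctrl, with a summed level of 12.32 to 13.32 for ch- and 12.09 to 13.66 for ch+, beside 8.40 to 9.46 for ctrl and 6.60 to 7.06 late. Hbb-bs averaged 7.59 in ctrl, beside 11.71 for ch-, 11.81 for ch+ and 4.64 late. Of the mitochondrially encoded genes, 8 of 10 were higher in ch- and 8 of 10 in ch+ than in ctrl, with median differences of 0.97 and 0.88, and 0 of 10 differed between ch+ and ch- by limma. They averaged 12.19 in ctrl, 12.00 late, 13.05 in ch+ and 13.14 in ch-. Of the skeletal muscle genes tested, 4 of 4 were higher in ch+ than in ctrl and 0 of 4 in ch- by limma, where all 4 had an unadjusted p under 0.05, beside 11.9% of all genes tested. Other markers passed the adjusted threshold against ctrl in ch+ and not in ch-. In ch+, 8 of 8 chondrocyte and 5 of 6 smooth muscle markers were lower and 5 of 9 mesenchymal markers were higher. These stand beside 2.75% lower and 3.41% higher of all genes tested, whereas in ch- 0 of each list were called. The 5 mesenchymal markers, Lepr, Cxcl12, Kitl, Adipoq and Ebf3, also lay above ctrl in ch-, with unadjusted limma p of 0.00449 to 0.0433. Of the mesenchymal list, only Cxcl12 differed between ch+ and ch- by limma (0.46 ± 0.15, adjusted p = 0.0871). In bulk RNA, fewer cells of a type and less RNA per cell cannot be told apart, and how much of the members' RNA came from blood cells was not tested.

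Within the early stage, some members were lower in cells with mCherry than in cells without it. In ch+, 11 of 37 members were lower than in ch- and 0 were higher, beside 2.68% and 3.58% of all genes tested and 6.26% in either direction. An unadjusted p under 0.05 was found for 19 members (51.4%), beside 15.4% of all genes tested. The lower members were Fos, Fosb, Fosl2, Jun, Egr1, Nr4a1, Nr4a2, Ier2, Zfp36, Nfkbiz and Btg2. The median difference of the members was −0.28, beside −0.02 for all genes tested, and 33 of 37 were negative. In 7 members every ch+ library lay below every ch- library, beside 1.33% of all genes tested, and in 0 members every one lay above, beside 1.68%. Rescaling of each library to the same total moved the median of all genes to 0.13 and that of the members to −0.13, with 1 member higher and 4 lower, and without the ribosomal RNA gene the members' median was −0.24, with 9 lower. All but Fosb and Jun kept the call whichever library was left out.

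Both lines showed this direction. In HL60, 5 members were lower in ch+ than in ch- and 0 higher, beside 1.66% and 2.27% of all genes tested and 3.92% in either direction, and Egr1, Egr2 and Nfkbiz kept the call whichever library was left out. In ML1, 10 were lower and 0 higher, beside 1.91%, 2.34% and 4.25%, and Fos, Jun, Egr1, Nr4a1 and Ier2 kept it. The difference between ch+ and ch- itself differed between the lines for 0 members by limma, beside 0.00771% of all genes tested. Here 3 members (8.11%) had an unadjusted p under 0.05, beside 6.40% of all genes tested.

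Cartilage and smooth muscle transcripts also differed between ch+ and ch-. All 8 of 8 chondrocyte markers were lower in ch+, with a summed level of 12.94 to 14.64 beside 15.02 to 16.31 in ch- and 16.06 to 17.19 in ctrl. Col2a1 averaged 13.57 in ch+ and 15.39 in ch-. Of the smooth muscle markers, 5 of 6 were lower, with a summed level of 12.49 to 12.93 beside 13.46 to 14.29. The members are expressed in many cell types, so a different mixture of cells and a different level per cell cannot be told apart here.

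Late in the disease 22 of 37 members did not differ from ctrl by limma. In late, 11 members were higher and 4 lower than in ctrl, beside 10.2% and 11.4% of all genes tested and 21.5% in either direction. The higher members were Jun, Maff, Egr1, Klf6, Ier5, Dusp6, Zfp36l1, Tnfaip3, Myc, Gadd45b and Rhob, and the lower ones were Fosl2, Atf3, Klf4 and Nr4a2. The median difference was 0.29, beside 0.02 for all genes tested. Without overlap of libraries, 6 members were higher and 2 lower, beside 9.15% and 9.93% of all genes tested. The linear sum of all values, divided by 1000000, was 11.9 to 14.2 in ctrl, 8.41 to 9.02 in HL60 late and 7.26 to 7.46 in ML1 late. Rescaling to equal totals therefore moved the median of all genes to 0.71 and that of the members to 0.98. Most genes thus moved with the members, of which 29 were then higher and 2 lower. With HL60 alone, 7 were higher and 6 lower than in ctrl, beside 6.46% and 7.24% of all genes tested and 13.7% in either direction. With ML1 alone 16 were higher and 3 lower, beside 9.89%, 12.1% and 22.0%.

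Markers of several cell types differed late as well. All 8 of 8 chondrocyte markers were lower in late than in ctrl, with a summed level of 11.38 to 13.85 beside 16.06 to 17.19, and Col2a1 averaged 12.35 beside 16.29. Of the osteoblast markers 5 of 7 were lower and 1 was higher, with a summed level of 14.39 to 16.16 beside 16.83 to 16.97. Of the smooth muscle markers 4 of 6 were lower, with a summed level of 12.99 to 13.38 beside 13.89 to 14.86. Of the mesenchymal markers 6 of 9 were higher (Lepr, Cxcl12, Pdgfrb, Kitl, Foxc1 and Ebf3) and 1 was lower (Pdgfra, −0.38 ± 0.13, adjusted p = 0.0541), while Adipoq and Nes did not differ. Of the red cell markers 4 of 8, of the myeloid markers 3 of 10 and of the skeletal muscle genes 1 of 4 were lower and 0 higher. Of the mitochondrially encoded genes 0 of 10 and of the endothelial markers 0 of 6 differed by limma. These shares stand beside 10.2% higher and 11.4% lower of all genes tested. With HL60 alone, 8 of 8 chondrocyte markers were lower, 5 of 7 osteoblast markers were lower and 1 higher, 4 of 6 smooth muscle markers were lower, and 6 of 9 mesenchymal markers were higher and 0 lower. Lower too were 4 of 8 red cell and 1 of 10 myeloid markers, 1 of 4 skeletal muscle and 1 of 10 mitochondrially encoded genes, beside 6.46% and 7.24%.

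Against the early groups, late cells differed in a similar number of members, with late libraries shared by both comparisons. Compared with ch+, 12 members were higher and 3 lower in late, beside 8.79% and 10.9% of all genes tested and 19.7% in either direction, with a median difference of 0.38. Compared with ch-, 6 were higher and 11 lower, beside 10.2%, 12.3% and 22.5%, with a median of 0.06. The libraries did not overlap in 4 members higher and 1 lower against ch+, beside 3.61% and 5.14%, and in 3 higher and 6 lower against ch-, beside 4.34% and 5.56%. Rescaling to equal totals moved the median of all genes to 0.63 against ch+, with 33 members higher and 1 lower, and to 0.77 against ch-, with 25 higher and 3 lower. Most genes moved with the members, since these medians of all genes had been 0.02 and 0.00 before rescaling. Markers of several cell types differed here too, in both directions. All 10 of 10 mitochondrially encoded genes, 10 of 10 myeloid markers and 4 of 4 skeletal muscle genes were lower in late than in either early group, as were 8 of 8 red cell markers against ch+ and 7 of 8 against ch-. Of the osteoblast markers 5 of 7 were lower and 1 higher against ch+, and 6 of 7 were lower against ch-. Of the chondrocyte markers 1 of 8 was lower against ch+ and 8 of 8 against ch-. Of the smooth muscle markers 3 of 6 were higher against ch+ and 4 of 6 lower against ch-. Of the mesenchymal markers 4 of 9 were higher and 2 lower against ch+, and 6 higher and 2 lower against ch-. Of the endothelial markers 3 of 6 were lower against ch+ and 1 of 6 against ch-. A different mixture of cells and a different level per cell cannot be told apart in these comparisons.

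**Figure D1:**
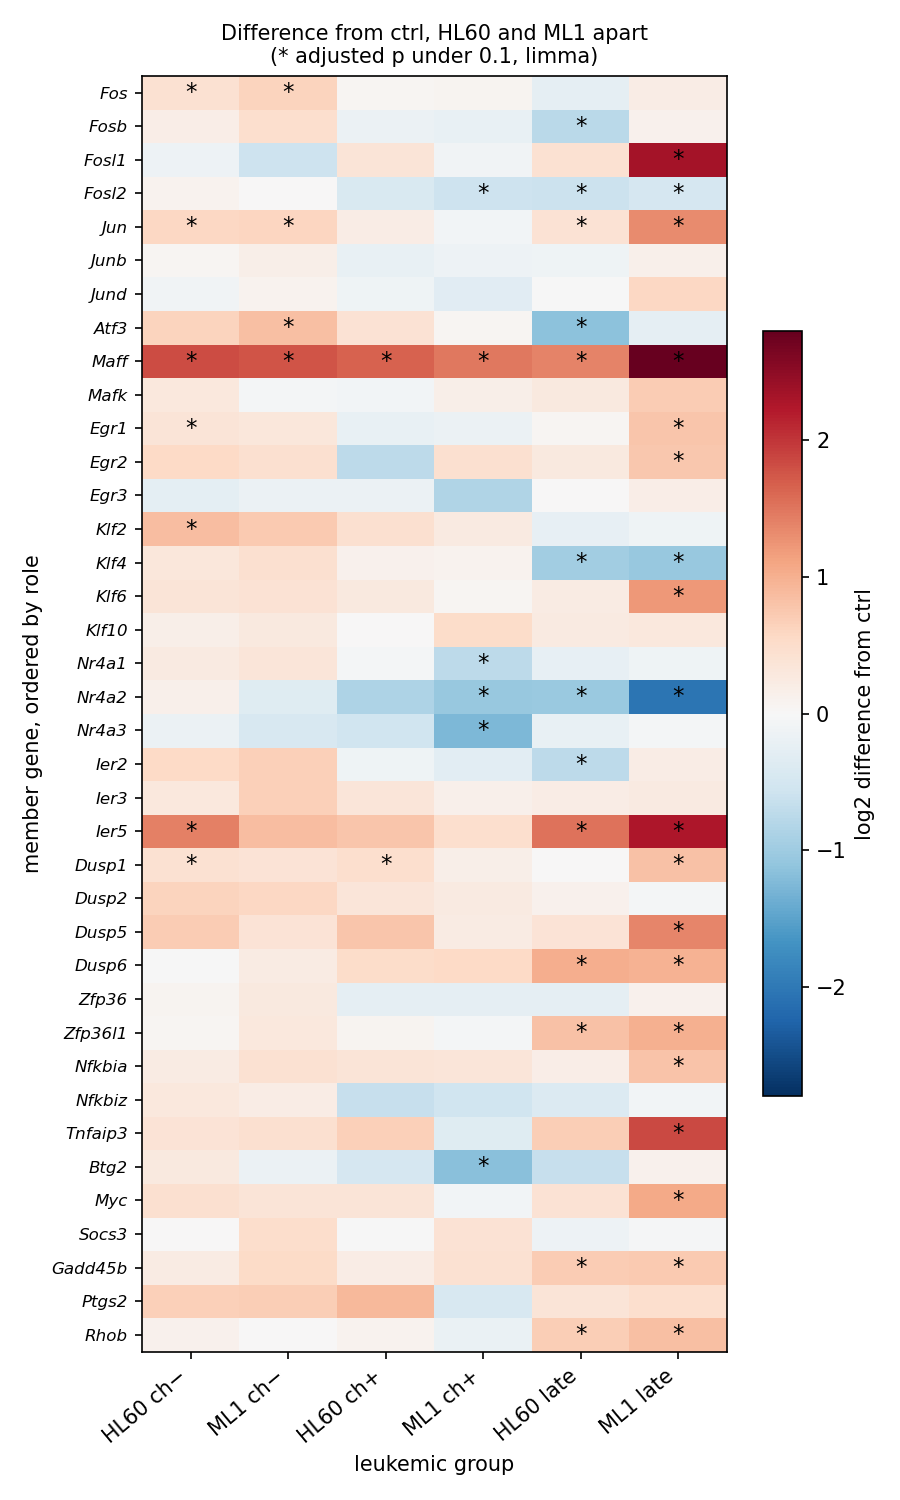
Difference of each of the 38 genes from ctrl on the log2 scale, as color, for ch-, ch+ and late in HL60 and ML1, with a star where the adjusted p was under 0.1. Maff lies above ctrl in all 6 columns, from 1.39 in HL60 late to 2.78 in ML1 late, while Klf4 lies below ctrl in both late columns.

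FOS proteins supply the FOS side of AP-1, which cannot bind DNA without a JUN partner. Fos (ENSMUSG00000021250) stood at 13.05, 13.32 and 13.23 in ctrl, 13.49, 13.72 and 13.66 in HL60 ch-, 13.59, 13.96 and 13.89 in ML1 ch-, 13.27, 13.32 and 13.15 in HL60 ch+ and 13.23, 13.24 and 13.37 in ML1 ch+. Late it stood at 12.88, 13.01 and 12.93 in HL60 late and 13.31, 13.32 and 13.55 in ML1 late. All 6 ch- libraries lay above every ctrl and every ch+ library, while the ch+ libraries lay within or near the range of ctrl. In HL60 late all 3 lay below ctrl, and in ML1 late none did. Fos was higher in ch- than in ctrl (0.52 ± 0.14, adjusted p = 0.0516) and lower in ch+ than in ch- (−0.46 ± 0.11, adjusted p = 0.0115). The call against ctrl was lost without ctrl 373 (13.05), ctrl 374 (13.32), ctrl 375 (13.23), ML1 ch- 544 (13.96) or ML1 ch- 546 (13.89), with differences of 0.45 to 0.58. Late and ctrl did not differ (−0.03 ± 0.14, adjusted p = 0.926), and late was lower than ch- (−0.55 ± 0.11, adjusted p = 0.000492).

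Fosb (ENSMUSG00000003545), which is induced together with Fos, stood at 11.81, 12.16 and 12.38 in ctrl, 12.19, 12.30 and 12.41 in HL60 ch-, 12.52, 12.54 and 12.67 in ML1 ch-, 11.93, 11.76 and 12.17 in HL60 ch+ and 11.99, 11.60 and 12.13 in ML1 ch+. In late cells it stood at 11.46, 11.38 and 11.27 in HL60 late and 12.07, 12.52 and 12.13 in ML1 late. The 6 ch+ libraries all lay below the 6 ch- libraries, and the HL60 late libraries were the lowest of all. Fosb was lower in ch+ than in ch- (−0.51 ± 0.16, adjusted p = 0.0800), a call that was lost without any of HL60 ch+ 523 (11.93), HL60 ch+ 524 (11.76), HL60 ch- 529 (12.41), ML1 ch+ 538 (11.99), ML1 ch+ 539 (11.60), ML1 ch- 543 (12.52), ML1 ch- 544 (12.54) or ML1 ch- 546 (12.67). By line the difference was −0.35 ± 0.15, adjusted p = 0.321 in HL60 and −0.67 ± 0.15, adjusted p = 0.00934 in ML1, and these differences did not differ from each other (0.32 ± 0.22, adjusted p = 0.850). Without ML1 ch+ 539 (11.60) the ML1 difference was −0.52 with an adjusted p of 0.112.

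Fosl2, a FOS protein with a later and longer induction, stood at 9.87, 10.47 and 10.42 in ctrl, 10.26, 10.72 and 10.06 in HL60 ch-, 10.46, 10.17 and 10.12 in ML1 ch-, 9.67, 9.87 and 9.94 in HL60 ch+ and 9.97, 9.59 and 9.47 in ML1 ch+. At the late stage it stood at 9.62, 9.65 and 9.66 in HL60 late and 9.78, 9.54 and 9.97 in ML1 late. All ch+ libraries lay below all ch- libraries, and late libraries overlapped with ctrl only at ctrl 373. Fosl2 was lower in ch+ than in ch- (−0.55 ± 0.13, adjusted p = 0.0110) and in late than in ctrl (−0.55 ± 0.16, adjusted p = 0.0186), but after rescaling to equal totals the late difference was 0.15. The late call was lost without ctrl 374 (10.47) or ctrl 375 (10.42). That of ch+ against ctrl (−0.50 ± 0.16, adjusted p = 0.0865) was lost without ctrl 374 (10.47), ctrl 375 (10.42), HL60 ch+ 523 (9.67), ML1 ch+ 539 (9.59) or ML1 ch+ 541 (9.47). Fosl1, a FOS protein with low values here, ranged from 3.03 to 6.77 and had its 3 highest values in ML1 late.

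Jun (ENSMUSG00000052684), the strongest activator among the JUN proteins, stood at 12.32, 12.53 and 12.82 in ctrl, 13.15, 13.21 and 13.06 in HL60 ch-, 13.15, 13.28 and 13.07 in ML1 ch-, 12.99, 12.60 and 12.69 in HL60 ch+ and 12.60, 12.44 and 12.41 in ML1 ch+. Late, its levels were 12.81, 13.10 and 12.95 in HL60 late and 13.78, 13.83 and 14.05 in ML1 late. Every ch- library exceeded every ctrl and ch+ library, and ML1 late exceeded all others. Jun was higher in late than in ctrl (0.86 ± 0.20, adjusted p = 0.00218) whichever library was left out, by 0.40 ± 0.13 in HL60 and 1.33 ± 0.13 in ML1. In HL60 the late call was lost without ctrl 373 (12.32), ctrl 374 (12.53), HL60 late 398 (13.10) or HL60 late 399 (12.95). It was lower in ch+ than in ch- (−0.53 ± 0.16, adjusted p = 0.0563), a call that was lost without HL60 ch- 528 (13.21), ML1 ch+ 539 (12.44), ML1 ch+ 541 (12.41) or ML1 ch- 544 (13.28) and after rescaling to equal totals (−0.38). In ML1 alone this difference was −0.68 ± 0.13, adjusted p = 0.00133, and in HL60 −0.38 ± 0.13, adjusted p = 0.141, with no difference between the lines (0.30 ± 0.18, adjusted p = 0.836).

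Junb and Jund, JUN proteins of weaker activity, differed in no comparison with ctrl. Junb stood at 9.88, 9.67 and 9.52 in ctrl, 9.78, 10.01 and 9.44 in HL60 ch-, 9.93, 9.98 and 9.65 in ML1 ch-, 9.71, 9.30 and 9.46 in HL60 ch+ and 9.54, 9.66 and 9.43 in ML1 ch+, and late at 9.38, 9.89 and 9.42 in HL60 late and 9.91, 9.83 and 9.75 in ML1 late. All groups overlapped, and late and ctrl differed by 0.00 ± 0.16. Jund ranged from 8.12 to 9.74, with its highest value in ML1 late 583.

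ATF3 is a stress-induced partner of JUN that often represses. Atf3 (ENSMUSG00000026628) stood at 9.64, 9.94 and 9.69 in ctrl, 10.34, 10.63 and 10.16 in HL60 ch-, 10.24, 10.94 and 10.61 in ML1 ch-, 10.06, 10.28 and 10.18 in HL60 ch+ and 9.76, 9.83 and 9.87 in ML1 ch+. Its late levels were 8.60, 8.38 and 8.83 in HL60 late and 9.46, 9.20 and 9.82 in ML1 late. The HL60 late libraries were the 3 lowest, ML1 late overlapped with ctrl, and all ch- libraries exceeded all ctrl and all late libraries. Atf3 was lower in late than in ctrl (−0.71 ± 0.22, adjusted p = 0.0268), but this call was lost without ctrl 374 (9.94), and after rescaling to equal totals the difference was −0.02. The lines differed: HL60 late was lower than ctrl (−1.15 ± 0.19, adjusted p = 5.01e-05), ML1 late was not (−0.26 ± 0.19, adjusted p = 0.390), and HL60 late was lower than ML1 late (−0.89 ± 0.19, adjusted p = 0.00282).

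Maff encodes a small MAF protein, which lacks an activation domain of its own. Maff (ENSMUSG00000042622) stood at 4.30, 5.01 and 5.10 in ctrl, 6.63, 6.09 and 7.19 in HL60 ch-, 7.42, 6.61 and 5.68 in ML1 ch-, 7.0, 5.94 and 6.43 in HL60 ch+ and 5.94, 6.32 and 6.58 in ML1 ch+. In the late libraries it stood at 6.22, 5.69 and 6.67 in HL60 late and 7.39, 7.12 and 8.23 in ML1 late. The 3 ctrl libraries were the lowest of all 21, without overlap. Maff was higher than in ctrl in ch- (1.80 ± 0.42, adjusted p = 0.0264), ch+ (1.56 ± 0.42, adjusted p = 0.0289) and late (2.08 ± 0.42, adjusted p = 0.000566), which share the same ctrl. Without ctrl 373 (4.30) the call was lost in ch- (1.55, adjusted p = 0.149) and ch+ (1.31, adjusted p = 0.171), and it was kept in late. By line the call was lost without ctrl 373 in every group but ML1 late, and also without HL60 late 399 (6.67), HL60 ch+ 523 (7.0), HL60 ch- 529 (7.19), ML1 ch+ 539 (6.32), ML1 ch+ 541 (6.58) or ML1 ch- 543 (7.42) in their groups. Between ch+ and ch- Maff did not differ (−0.24 ± 0.34, adjusted p = 0.812). Mafk, another small MAF gene, ranged from 5.68 to 7.41 and differed in no comparison.

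**Figure D2:**
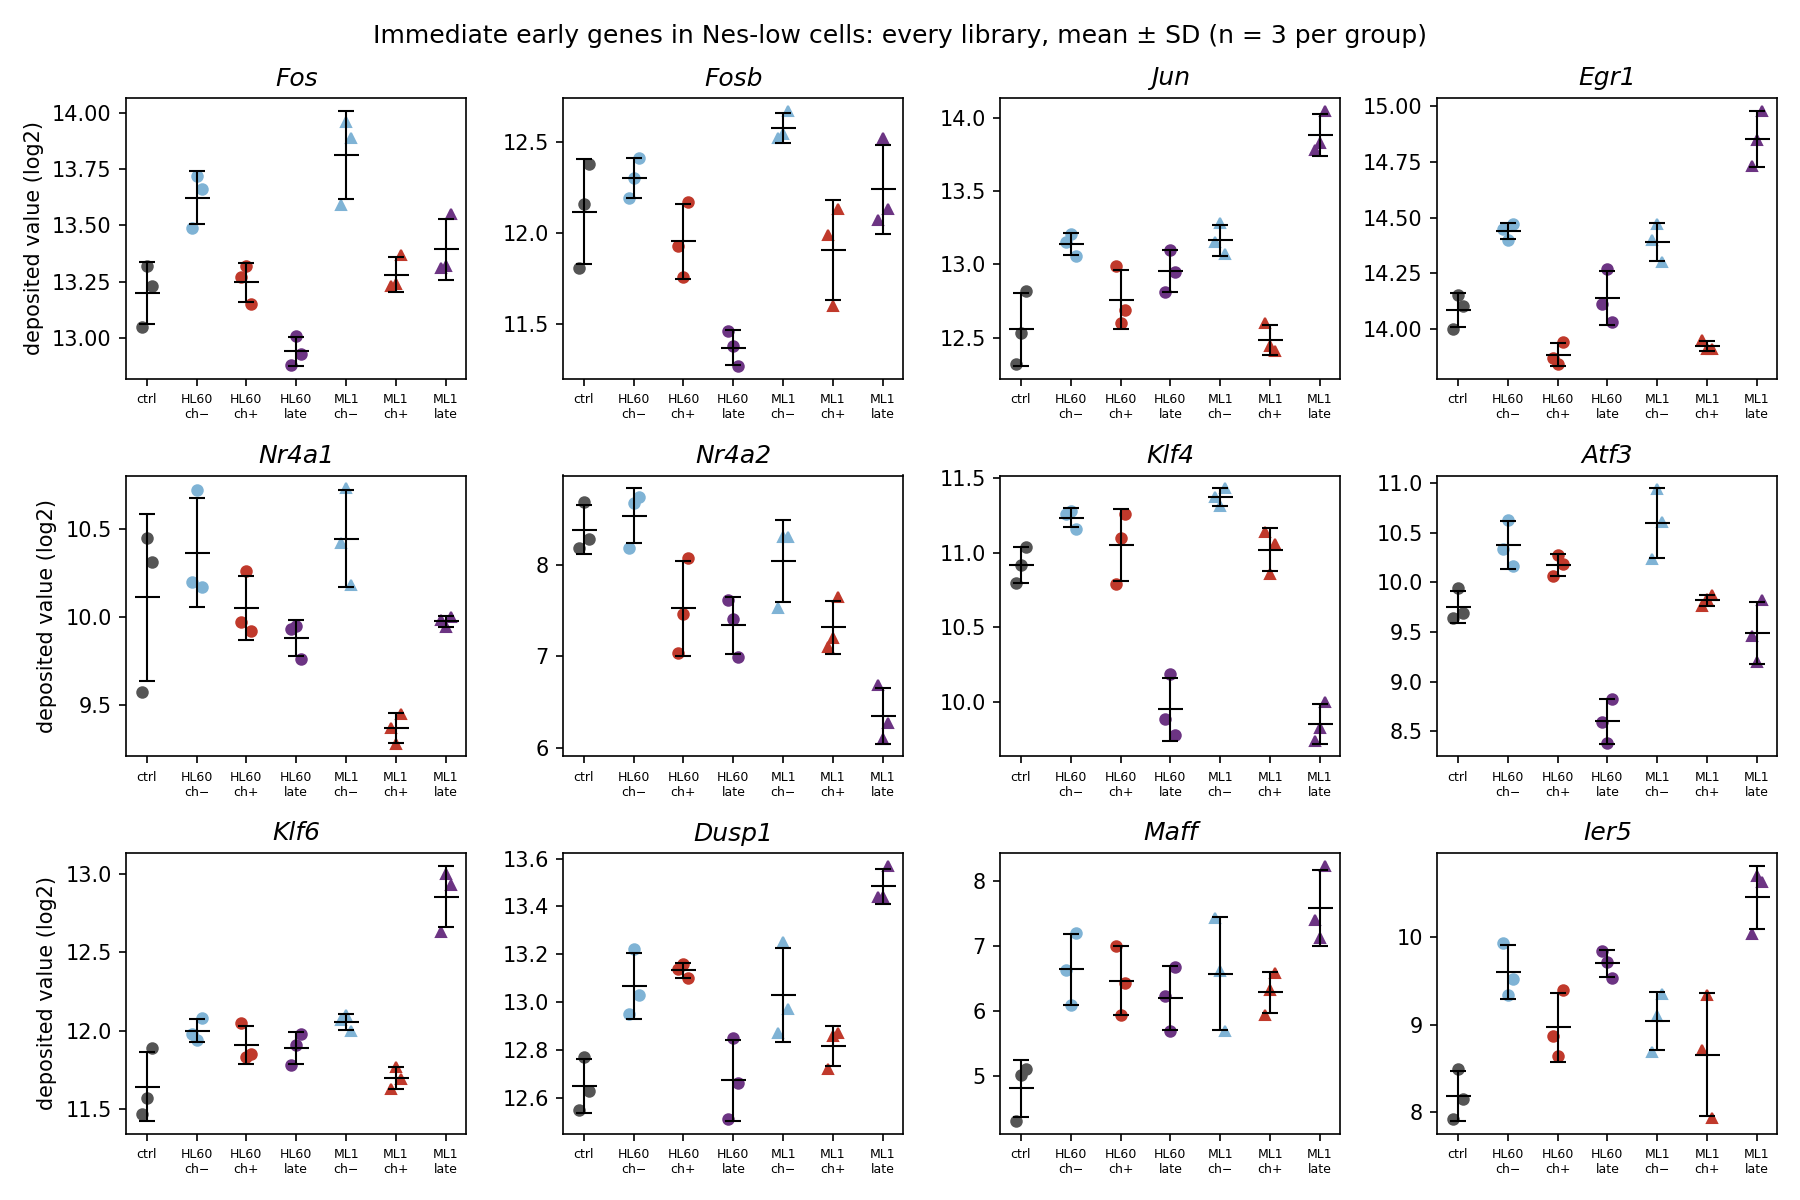
Deposited log2 levels of 12 members in each of the 21 libraries, by group and AML line, with mean and standard deviation over 3 libraries. Points of Fos and Egr1 in ch- lie above those in ctrl and ch+, and those of Jun, Egr1, Klf6 and Ier5 are highest in ML1 late.

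EGR proteins are zinc finger factors, and Egr1 is among the fastest to respond to MAP kinases. Egr1 (ENSMUSG00000038418) stood at 14.00, 14.15 and 14.10 in ctrl, 14.45, 14.40 and 14.47 in HL60 ch-, 14.40, 14.47 and 14.30 in ML1 ch-, 13.87, 13.84 and 13.94 in HL60 ch+ and 13.95, 13.91 and 13.91 in ML1 ch+. In late cells it stood at 14.11, 14.27 and 14.03 in HL60 late and 14.73, 14.85 and 14.98 in ML1 late. The order was the same in both lines: all ch+ libraries lay below all ctrl libraries, and all ch- libraries above them. ML1 late lay above every other library, while HL60 late overlapped with ctrl. Egr1 was lower in ch+ than in ch- (−0.51 ± 0.13, adjusted p = 0.0126), in HL60 (−0.56 ± 0.10, adjusted p = 0.000728) and in ML1 (−0.47 ± 0.10, adjusted p = 0.00469), but after rescaling to equal totals the pooled call was lost (−0.36). It was higher in late than in ctrl (0.41 ± 0.16, adjusted p = 0.0714), a call that was lost without any of ctrl 373 (14.00), ctrl 374 (14.15), ctrl 375 (14.10), ML1 late 581 (14.73), ML1 late 582 (14.85) or ML1 late 583 (14.98). With HL60 alone, late and ctrl did not differ (0.05 ± 0.10, adjusted p = 0.831), whereas ML1 late was higher (0.77 ± 0.10, adjusted p = 8.12e-07).

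Egr2 and Egr3 act in the same wave and were less clear. Egr2 stood at 6.61, 6.81 and 6.73 in HL60 ch+ and at 7.99, 8.10 and 7.98 in HL60 ch-, without overlap, but at 8.12, 7.96 and 7.64 in ML1 ch+ and 8.51, 7.84 and 7.36 in ML1 ch-, where the libraries overlapped. Egr2 was lower in ch+ in HL60 (−1.31 ± 0.27, adjusted p = 0.00376) and not in ML1 (0.01 ± 0.27, adjusted p = 0.996), but the difference between the lines did not pass the threshold (−1.31 ± 0.39, adjusted p = 0.628, unadjusted p = 0.00200). Egr3 ranged from 3.80 to 6.50 and differed in no comparison.

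KLF proteins are zinc finger factors of growth arrest and differentiation, and Klf4 is induced by shear stress and DNA damage. Klf4 (ENSMUSG00000003032) stood at 10.80, 10.92 and 11.04 in ctrl, 11.26, 11.28 and 11.16 in HL60 ch-, 11.37, 11.31 and 11.43 in ML1 ch-, 10.79, 11.10 and 11.26 in HL60 ch+ and 11.14, 10.86 and 11.06 in ML1 ch+. At the late stage its levels were 9.89, 10.19 and 9.78 in HL60 late and 9.74, 9.83 and 10.00 in ML1 late. The 6 late libraries were the 6 lowest in both lines, without overlap with any other group. Klf4 was lower in late than in ctrl (−1.01 ± 0.13, adjusted p = 1.04e-06), ch+ (−1.13 ± 0.10, adjusted p = 3.26e-09) and ch- (−1.40 ± 0.10, adjusted p = 6.37e-11). HL60 late (−0.97 ± 0.14, adjusted p = 1.62e-05) and ML1 late (−1.06 ± 0.14, adjusted p = 1.48e-06) lay below ctrl to a similar extent, and the lines did not differ (0.10 ± 0.14, adjusted p = 0.947).

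Klf6, a broadly expressed early response factor, stood at 11.47, 11.57 and 11.89 in ctrl, 11.98, 11.94 and 12.08 in HL60 ch-, 12.07, 12.10 and 12.00 in ML1 ch-, 12.05, 11.83 and 11.85 in HL60 ch+ and 11.63, 11.77 and 11.69 in ML1 ch+. In late cells its levels were 11.78, 11.91 and 11.98 in HL60 late and 12.63, 13.00 and 12.93 in ML1 late. ML1 late exceeded all other libraries, and HL60 late overlapped with ch- and ctrl. Klf6 was higher in late than in ctrl (0.73 ± 0.20, adjusted p = 0.00919), but with HL60 alone it was not (0.24 ± 0.13, adjusted p = 0.269), and HL60 late was lower than ML1 late (−0.97 ± 0.13, adjusted p = 3.51e-06).

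Klf2 is best known as a gene of quiescence and flow in endothelium. Its levels were 8.02, 8.58 and 7.97 in ctrl, 9.13, 8.90 and 9.12 in HL60 ch-, 8.83, 8.98 and 8.95 in ML1 ch-, 8.98, 8.81 and 8.13 in HL60 ch+ and 8.65, 8.28 and 8.42 in ML1 ch+. Late levels were 7.89, 8.34 and 7.67 in HL60 late and 7.79, 8.42 and 8.01 in ML1 late. Every ch- library exceeded every ctrl and late library. Klf2 was higher in ch- than in ctrl (0.79 ± 0.20, adjusted p = 0.0448), a call that was lost without ctrl 373 (8.02) or ctrl 375 (7.97), and lower in late than in ch- (−0.96 ± 0.17, adjusted p = 6.06e-05). Klf10, a factor induced by TGFβ, ranged from 7.24 to 8.64 and differed in no comparison.

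NR4A proteins are nuclear receptors without a known ligand that are controlled by their own amount. Nr4a1 (ENSMUSG00000023034) stood at 9.57, 10.45 and 10.31 in ctrl, 10.20, 10.72 and 10.17 in HL60 ch-, 10.42, 10.73 and 10.18 in ML1 ch-, 9.97, 10.26 and 9.92 in HL60 ch+ and 9.37, 9.28 and 9.45 in ML1 ch+. At the late stage its levels were 9.93, 9.95 and 9.76 in HL60 late and 9.98, 9.94 and 10.00 in ML1 late. The ML1 ch+ libraries were the 3 lowest of all, whereas HL60 ch+ overlapped with ch-. Nr4a1 was lower in ch+ than in ch- (−0.69 ± 0.16, adjusted p = 0.00769). The difference was −1.08 ± 0.19, adjusted p = 0.000725 in ML1 and −0.31 ± 0.19, adjusted p = 0.542 in HL60. The difference between the lines did not pass the threshold (0.76 ± 0.27, adjusted p = 0.660, unadjusted p = 0.00899). Late and ctrl did not differ (−0.18 ± 0.20, adjusted p = 0.626).

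Nr4a2 (ENSMUSG00000026826), known also in osteoblasts as a gene induced by parathyroid hormone, stood at 8.19, 8.69 and 8.28 in ctrl, 8.19, 8.68 and 8.74 in HL60 ch-, 7.53, 8.30 and 8.30 in ML1 ch-, 7.04, 7.46 and 8.07 in HL60 ch+ and 7.10, 7.20 and 7.65 in ML1 ch+. In the late libraries its levels were 7.61, 7.41 and 6.99 in HL60 late and 6.68, 6.09 and 6.27 in ML1 late. All late and all ch+ libraries lay below all ctrl libraries, and the ML1 late libraries were the lowest. Nr4a2 was lower in late than in ctrl (−1.55 ± 0.30, adjusted p = 0.000383) whichever library was left out, and lower in ch+ than in ch- (−0.87 ± 0.25, adjusted p = 0.0346). With HL60 alone the late difference was −1.05 ± 0.29, adjusted p = 0.0165, a call lost without HL60 late 399 (6.99). The call of ch+ against ctrl (−0.97 ± 0.30, adjusted p = 0.0691) was lost without ctrl 373 (8.19), ctrl 374 (8.69), ctrl 375 (8.28), HL60 ch+ 523 (7.04), ML1 ch+ 538 (7.10) or ML1 ch+ 539 (7.20). Nr4a3, the remaining member of the family, ranged from 6.28 to 8.55, with a difference of 0.77 ± 0.25, adjusted p = 0.0347 between late and ch+ that was lost without ML1 ch+ 541 (6.28).

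IER proteins are short-lived products of early genes, and IER5 takes part in the heat shock response. Ier5 (ENSMUSG00000056708) stood at 7.92, 8.49 and 8.15 in ctrl, 9.94, 9.34 and 9.52 in HL60 ch-, 8.69, 9.10 and 9.35 in ML1 ch-, 8.87, 8.64 and 9.40 in HL60 ch+ and 8.71, 9.34 and 7.93 in ML1 ch+. Its values late were 9.85, 9.72 and 9.54 in HL60 late and 10.04, 10.70 and 10.63 in ML1 late. All ch- and all late libraries exceeded all ctrl libraries, and the ML1 late libraries were the highest of all. Ier5 was higher in late than in ctrl (1.89 ± 0.28, adjusted p = 9.69e-06), in HL60 by 1.52 ± 0.27, adjusted p = 0.000172 and in ML1 by 2.27 ± 0.27, adjusted p = 1.42e-07, and higher in late than in ch+ (1.26 ± 0.23, adjusted p = 0.000120). It was also higher in ch- than in ctrl (1.13 ± 0.28, adjusted p = 0.0362), a call that was lost without ctrl 373 (7.92) or ctrl 375 (8.15).

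Ier2, a nuclear protein of the early response, stood at 8.53, 8.15 and 7.90 in ctrl, 8.67, 8.80 and 8.78 in HL60 ch-, 8.83, 9.03 and 8.69 in ML1 ch-, 8.22, 8.01 and 7.97 in HL60 ch+ and 8.01, 8.09 and 7.59 in ML1 ch+. Its late values were 7.25, 7.87 and 7.24 in HL60 late and 8.41, 8.45 and 8.30 in ML1 late. All ch+ libraries and all late libraries lay below all ch- libraries. Ier2 was lower in ch+ than in ch- (−0.82 ± 0.19, adjusted p = 0.00874) and in late than in ch- (−0.88 ± 0.19, adjusted p = 0.00134). Ier3, which protects cells from death, ranged from 8.40 to 9.49 and differed in no comparison.

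DUSP proteins remove phosphate from MAP kinases, and DUSP1 acts on p38 and JNK in the nucleus. Dusp1 (ENSMUSG00000024190) stood at 12.55, 12.77 and 12.63 in ctrl, 12.95, 13.22 and 13.03 in HL60 ch-, 12.87, 13.25 and 12.97 in ML1 ch-, 13.14, 13.16 and 13.10 in HL60 ch+ and 12.72, 12.86 and 12.87 in ML1 ch+. Late it stood at 12.51, 12.85 and 12.66 in HL60 late and 13.44, 13.44 and 13.57 in ML1 late. All ch- and all ML1 late libraries exceeded ctrl, while HL60 late overlapped with ctrl. Dusp1 was higher in ML1 late than in ctrl (0.83 ± 0.12, adjusted p = 3.29e-06) and not in HL60 late (0.02 ± 0.12, adjusted p = 0.955), and HL60 late was lower than ML1 late (−0.81 ± 0.12, adjusted p = 2.18e-05). HL60 ch+ was higher than ctrl (0.48 ± 0.12, adjusted p = 0.0162) and ML1 ch+ was not (0.17 ± 0.12, adjusted p = 0.529). The difference between the lines in ch+ did not pass the threshold (0.32 ± 0.12, adjusted p = 0.549).

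Dusp6, which acts on ERK and is itself a product of ERK signaling, stood at 7.31, 7.48 and 7.44 in ctrl, 7.70, 7.13 and 7.37 in HL60 ch-, 7.25, 7.90 and 7.76 in ML1 ch-, 8.38, 7.57 and 7.81 in HL60 ch+ and 7.33, 7.94 and 8.64 in ML1 ch+. It stood at 8.61, 8.49 and 8.18 in HL60 late and 8.30, 8.30 and 8.56 in ML1 late. All late libraries exceeded all ctrl and all ch- libraries, and the ch+ libraries spread over both ranges. Dusp6 was higher in late than in ctrl (0.99 ± 0.24, adjusted p = 0.00317) and in ch- (0.88 ± 0.19, adjusted p = 0.00116), without a difference between the lines late (0.04 ± 0.28, adjusted p = 0.993). Dusp5, a nuclear ERK phosphatase, ranged from 3.91 to 6.47 and differed in no pooled comparison.

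ZFP36 proteins bind AU-rich elements and lead transcripts of cytokines and early genes to decay. Zfp36l1 (ENSMUSG00000021127) stood at 11.83, 12.09 and 11.92 in ctrl, 11.97, 11.98 and 12.06 in HL60 ch-, 12.28, 12.30 and 12.16 in ML1 ch-, 12.12, 11.86 and 12.09 in HL60 ch+ and 12.19, 11.81 and 11.66 in ML1 ch+. In the late libraries it stood at 12.60, 13.13 and 12.53 in HL60 late and 12.91, 12.91 and 13.01 in ML1 late. The 6 late libraries exceeded all 15 others. Zfp36l1 was higher in late than in ctrl (0.90 ± 0.14, adjusted p = 1.96e-05), ch+ (0.89 ± 0.11, adjusted p = 8.28e-07) and ch- (0.72 ± 0.11, adjusted p = 2.04e-05), in HL60 by 0.81 ± 0.14 and in ML1 by 1.00 ± 0.14 over ctrl.

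Zfp36 encodes tristetraprolin, whose own transcript is an early gene. Its levels were 12.86, 12.79 and 12.60 in ctrl, 12.82, 13.08 and 12.58 in HL60 ch-, 12.92, 13.07 and 13.10 in ML1 ch-, 12.57, 12.45 and 12.47 in HL60 ch+ and 12.41, 12.47 and 12.64 in ML1 ch+. In late cells they were 12.46, 12.78 and 12.26 in HL60 late and 12.94, 12.72 and 12.99 in ML1 late. The ch+ libraries lay at the low end and overlapped with ch- only at HL60 ch- 529. Zfp36 was lower in ch+ than in ch- (−0.43 ± 0.12, adjusted p = 0.0270), but after rescaling to equal totals this call was lost (−0.27). Late and ctrl did not differ (−0.06 ± 0.14, adjusted p = 0.839).

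Nfkbiz encodes IκBζ, a nuclear cofactor of NF-κB that is itself induced by it. Nfkbiz (ENSMUSG00000035356) stood at 8.66, 9.45 and 9.16 in ctrl, 9.49, 9.49 and 9.18 in HL60 ch-, 9.70, 9.17 and 9.03 in ML1 ch-, 8.28, 8.42 and 8.62 in HL60 ch+ and 8.58, 8.56 and 8.48 in ML1 ch+. Late values were 8.49, 9.09 and 8.56 in HL60 late and 8.73, 9.28 and 9.05 in ML1 late. All 6 ch+ libraries lay below all ctrl and ch- libraries. Nfkbiz was lower in ch+ than in ch- (−0.85 ± 0.16, adjusted p = 0.000593). The call of ch+ against ctrl (−0.60 ± 0.19, adjusted p = 0.0810) was lost without ctrl 374 (9.45), ctrl 375 (9.16), HL60 ch+ 523 (8.28), HL60 ch+ 524 (8.42), ML1 ch+ 539 (8.56) or ML1 ch+ 541 (8.48).

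Tnfaip3 encodes A20, which edits ubiquitin and ends NF-κB signaling. Its levels were 6.04, 7.04 and 8.38 in ctrl, 7.39, 7.32 and 7.89 in HL60 ch-, 7.38, 7.48 and 7.90 in ML1 ch-, 7.74, 8.06 and 7.65 in HL60 ch+ and 7.16, 6.57 and 6.68 in ML1 ch+. Late they were 7.81, 7.72 and 8.02 in HL60 late and 9.13, 8.40 and 9.49 in ML1 late. The ctrl libraries were far apart and overlapped with every group but ML1 late, which was the highest group. Tnfaip3 was higher in late than in ctrl (1.27 ± 0.40, adjusted p = 0.0261), a call that was lost without ctrl 373 (6.04) and with HL60 alone (0.69 ± 0.37, adjusted p = 0.289). Nfkbia, which encodes IκBα, ranged from 7.35 to 8.59 and differed in no pooled comparison.

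Among the remaining members, Rhob encodes an early-response GTPase of the cytoskeleton and endosomes. It stood at 9.22, 9.22 and 9.68 in ctrl, 9.59, 9.53 and 9.39 in HL60 ch-, 9.59, 9.37 and 9.22 in ML1 ch-, 9.50, 9.28 and 9.66 in HL60 ch+ and 9.40, 8.98 and 9.22 in ML1 ch+. Its late values were 9.99, 10.22 and 9.98 in HL60 late and 10.02, 10.30 and 10.32 in ML1 late. All late libraries exceeded all others, and the early groups overlapped with ctrl. Rhob was higher in late than in ctrl (0.77 ± 0.16, adjusted p = 0.000598), ch+ (0.80 ± 0.13, adjusted p = 2.16e-05) and ch- (0.69 ± 0.13, adjusted p = 0.000153), and the lines did not differ late (−0.15 ± 0.17, adjusted p = 0.922).

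Gadd45b, an activator of stress kinases upstream of p38 and JNK, stood at 8.84, 8.50 and 8.60 in ctrl, 9.41, 8.80 and 8.42 in HL60 ch-, 8.94, 9.69 and 8.93 in ML1 ch-, 8.68, 8.98 and 8.91 in HL60 ch+ and 8.95, 9.14 and 9.11 in ML1 ch+. In late cells its levels were 9.10, 9.65 and 9.34 in HL60 late and 9.05, 9.35 and 9.73 in ML1 late. All late libraries exceeded ctrl, while ch- and ch+ overlapped with both. Gadd45b was higher in late than in ctrl (0.73 ± 0.21, adjusted p = 0.0138). In HL60 this difference was 0.72 ± 0.24, adjusted p = 0.0470, a call that was lost without any of ctrl 374 (8.50), ctrl 375 (8.60), HL60 late 398 (9.65) or HL60 late 399 (9.34), and in ML1 0.73 ± 0.24, adjusted p = 0.0275, lost without ML1 late 583 (9.73).

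Myc, a transcription factor of growth, stood at 9.80, 9.70 and 10.51 in ctrl, 10.20, 10.44 and 10.70 in HL60 ch-, 10.10, 10.53 and 10.45 in ML1 ch-, 10.42, 10.43 and 10.25 in HL60 ch+ and 9.62, 10.08 and 10.07 in ML1 ch+. Late it stood at 10.37, 10.59 and 10.28 in HL60 late and 10.88, 10.97 and 11.32 in ML1 late. The ML1 late libraries were the 3 highest, and HL60 late overlapped with ctrl. Myc was higher in late than in ctrl (0.73 ± 0.21, adjusted p = 0.0134), a call that was lost without ctrl 374 (9.70) and with HL60 alone (0.41 ± 0.19, adjusted p = 0.206). Btg2, which slows cell division, ranged from 7.91 to 10.36 and was lower in ch+ than in ch- (−0.89 ± 0.24, adjusted p = 0.0261). Socs3, an inhibitor of cytokine receptors, ranged from 10.54 to 11.45, and Ptgs2, which encodes cyclooxygenase-2, from 4.49 to 7.55, and neither differed from ctrl in any comparison.

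Some members differed between mice with HL60 and with ML1 late, where the comparison rests on the ML1 libraries with the doubtful label. Whether the lines differed more late than early was not tested. In HL60 late, 12 members were lower than in ML1 late and 1 was higher, beside 0.932% and 3.16% of all genes tested and 4.09% in either direction. The median difference of the members was −0.43, beside 0.00 for all genes tested. Rescaling to equal totals moved it to −0.68, with 17 members lower and 0 higher, while the median of all genes moved to −0.24. In ch+, 0 members differed between the lines by limma, beside 0.0154% of all genes tested, all of them higher in HL60. An unadjusted p under 0.05 was found for 10 members (27.0%), beside 7.61% of all genes tested. In ch-, 0 differed, beside 0.0539%, of which 0.0385% were higher and 0.0154% lower in HL60, and 2 members (5.41%) had an unadjusted p under 0.05, beside 6.82% of all genes tested.

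The largest of these late differences with a call that held whichever library was left out were those of Klf6 (−0.97 ± 0.13), Jun (−0.93 ± 0.13), Ier2 (−0.93 ± 0.22), Atf3 (−0.89 ± 0.19), Fosb (−0.87 ± 0.15), Dusp1 (−0.81 ± 0.12) and Egr1 (−0.71 ± 0.10). Fos was lower in HL60 late too (−0.45 ± 0.12, adjusted p = 0.0206), but the call was lost without ML1 late 583 (13.55) or HL60 late 397 (12.88). Myc was lower (−0.64 ± 0.19, adjusted p = 0.0627), a call lost without any of ML1 late 582 (10.97), ML1 late 583 (11.32), HL60 late 397 (10.37) or HL60 late 399 (10.28). The call of Maff (−1.38 ± 0.43, adjusted p = 0.0829) was lost without ML1 late 581 (7.39), ML1 late 583 (8.23), HL60 late 397 (6.22) or HL60 late 398 (5.69). That of Tnfaip3 (−1.16 ± 0.37, adjusted p = 0.0987) was lost without ML1 late 581 (9.13), ML1 late 583 (9.49), HL60 late 397 (7.81), HL60 late 398 (7.72) or HL60 late 399 (8.02). Fosl1 was lower (−1.91 ± 0.57, adjusted p = 0.0659) unless ML1 late 581 (6.49), ML1 late 582 (6.27), ML1 late 583 (6.77) or HL60 late 398 (3.76) was left out. Nr4a2 was the only member with a higher level in HL60 late (0.99 ± 0.29, adjusted p = 0.0608), a call lost without any of ML1 late 582 (6.09), ML1 late 583 (6.27), HL60 late 397 (7.61) or HL60 late 398 (7.41). ML1 late 583 was the highest library of all for 12 of 37 members.

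Bone and cartilage transcripts differed between the lines late as well. The osteoblast markers averaged 12.37 in HL60 late and 10.34 in ML1 late, beside 13.33 in ctrl, and 7 of 7 were higher in HL60 late, beside 3.16% of all genes tested, with a median difference of 2.01. Their summed level was 15.51 to 16.16 in HL60 late and 14.39 to 14.91 in ML1 late, and Bglap averaged 12.98 and 9.66. Of the chondrocyte markers, 4 of 8 were higher in HL60 late, with a median of 1.97. Whether the members' levels followed the share of osteoblast-like cells was not tested.

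**Figure D3:**
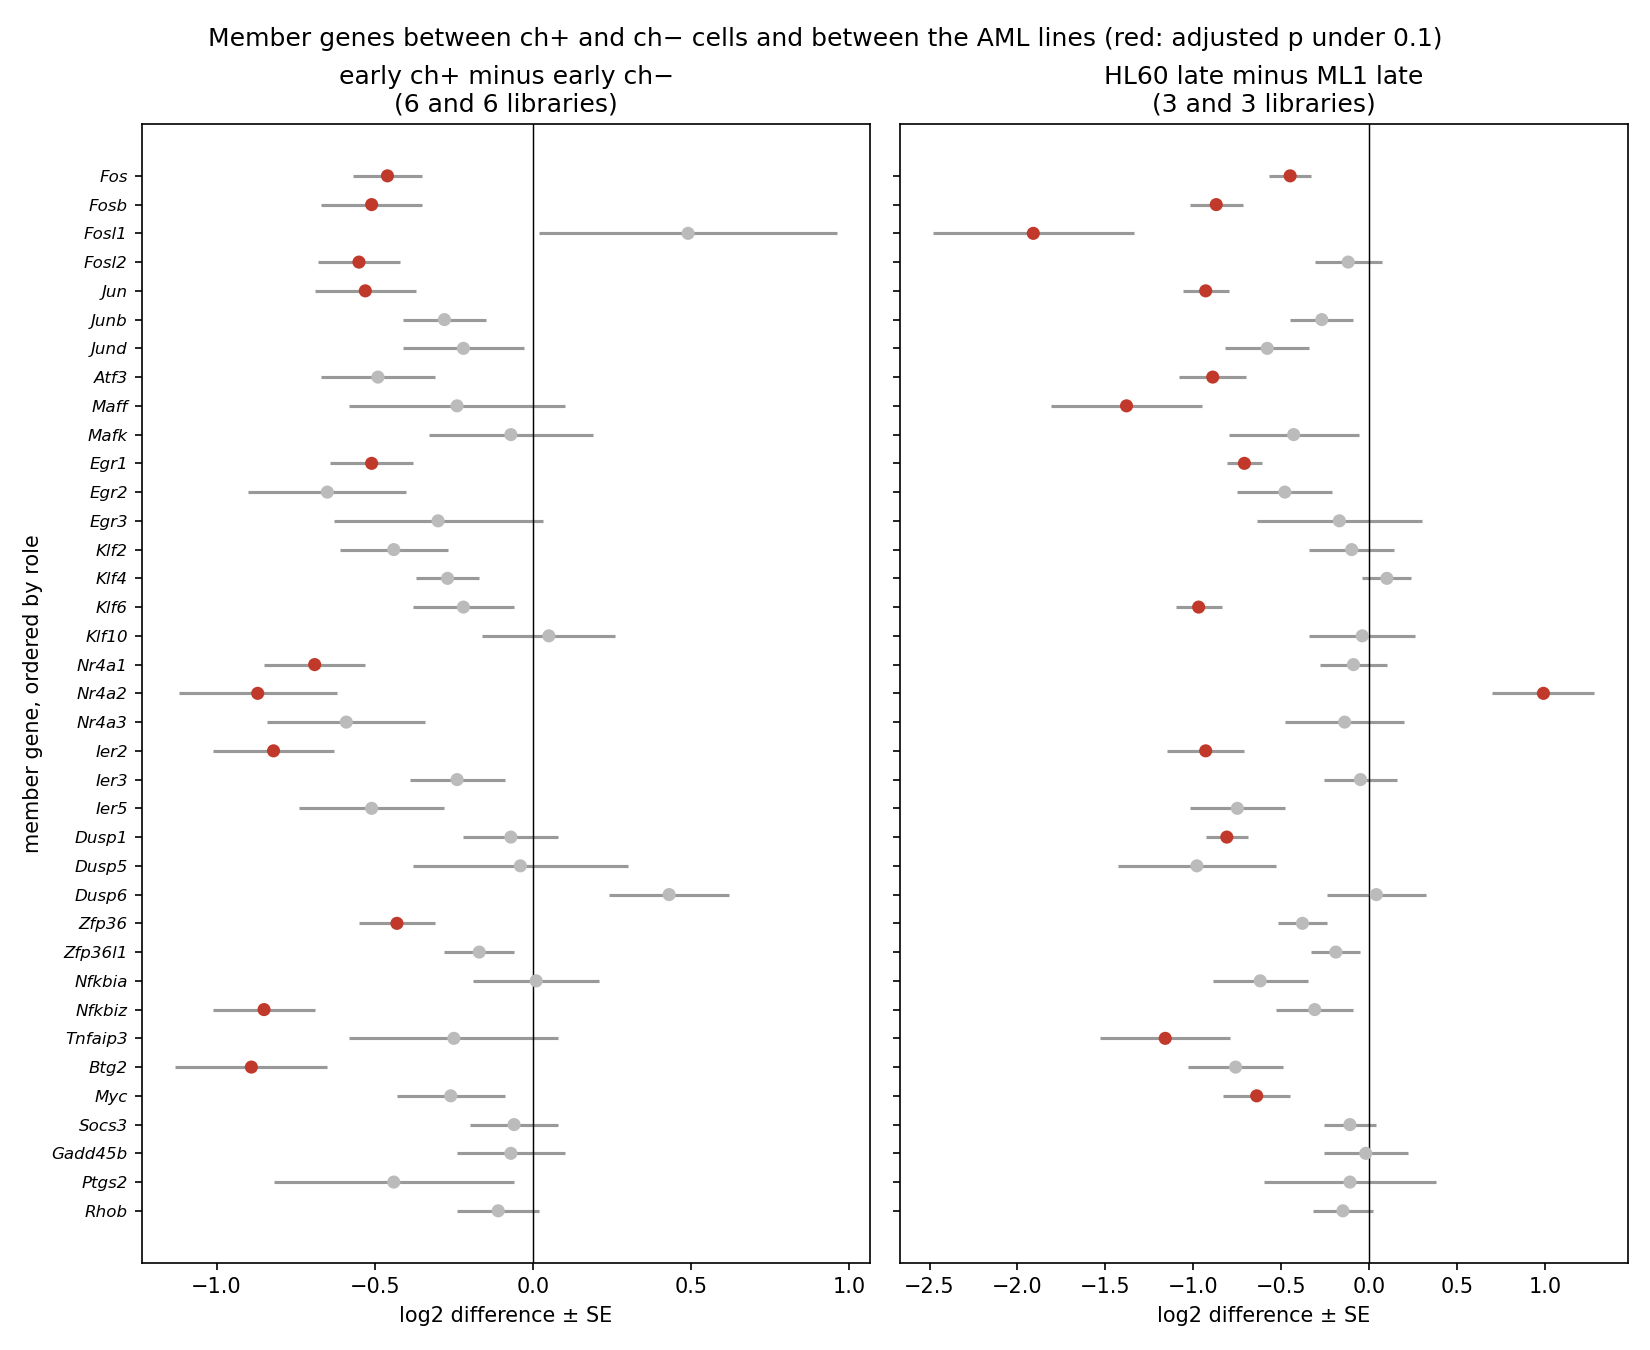
Difference of each member on the log2 scale ± standard error between ch+ and ch- (6 libraries each) and between HL60 late and ML1 late (3 libraries each), in red where the adjusted p was under 0.1. Most members lie below 0 in both panels, with Btg2 at −0.89 in the former and Fosl1 at −1.91 in the latter.

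Genes that act with the members were read from lists, and the genes named here were among those with the smallest adjusted p. Of 15 other bZIP and AP-1 partner genes tested, 6 were higher and 1 lower in late than in ctrl, beside 10.2% and 11.4% of all genes tested, with a median difference of 0.58. Those shares, and 3.58% higher and 2.68% lower in ch+ than in ch-, also stand beside the counts of the lists below. Creb5, a partner of JUN, was lower (−1.16 ± 0.19, adjusted p = 5.42e-05). Creb5 was the only gene of this list that differed between ch+ and ch-, where it was higher (2.28 ± 0.16, adjusted p = 8.66e-11), against the direction of the members. Of 19 upstream genes of the MAP kinase and serum response factor pathways, 1 was higher and 1 lower in late than in ctrl, beside 21.5% of all genes tested in either direction, and 2 were higher in ch+ than in ch-. These were Elk4 (0.49 ± 0.12, adjusted p = 0.0130) and Mrtfb (0.42 ± 0.13, adjusted p = 0.0576), both cofactors of serum response factor. Of 14 further feedback genes of MAP kinases, 3 were higher and 1 lower in late than in ctrl, led by Spry1 (1.30 ± 0.26, adjusted p = 0.000589).

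Of 23 further NF-κB genes, 11 were higher and 0 lower in late than in ctrl, with a median difference of 0.87 beside 0.02 for all genes tested. Vcam1, an adhesion molecule (1.12 ± 0.19, adjusted p = 5.53e-05), and Ccl2, a chemokine (2.69 ± 0.54, adjusted p = 0.000561), had the smallest adjusted p. Of 35 other immediate and delayed early genes, 14 were higher and 3 lower in late than in ctrl. Between ch+ and ch-, 2 of them were higher and 3 lower, among them Ccn2, a target of YAP that was higher (0.98 ± 0.10, adjusted p = 5.27e-08). Of 17 STAT3 and SOCS genes, 5 were higher and 1 lower in late than in ctrl, and 3 were higher in ch+ than in ch-, with Osmr, the oncostatin M receptor, higher in both (1.70 ± 0.20, adjusted p = 3.56e-07, and 0.79 ± 0.16, adjusted p = 0.00193). Of 18 heat shock and chaperone genes, 10 were higher and 1 lower in late than in ctrl. In HL60 late 13 of these 18 were lower and 0 higher than in ML1 late, beside 0.932% and 3.16% of all genes tested, with a median difference of −0.97. With HL60 alone, the counts higher and lower than in ctrl were 3 and 1 of 15 bZIP genes, 1 and 1 of 19 upstream genes, 2 and 1 of 14 feedback genes, 6 and 0 of 23 NF-κB genes, 9 and 2 of 35 other early genes, 3 and 1 of 17 STAT3 and SOCS genes and 1 and 0 of 18 heat shock genes. These stand beside 6.46% and 7.24% of all genes tested.

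Promoters are shown for members that were lower in ch+ than in ch- and for Dusp1, which was not, so that readers can see motifs known from early genes. For 31 of the 38 members a window of 250 bases before the transcription start was read from the RefSeq annotation of the mouse build GRCm38.p6, and windows were lacking for Fosl1, Myc, Egr1, Klf10, Egr3, Ier2 and Nfkbiz. The genes printed and the motifs were chosen after the values were seen. Both strands were searched for the AP-1 motif TGANTCA, the CRE TGACGTCA, its part TGACG, which also lies within every TGACGTCA, the CArG box of serum response factor, and the EGR motif GCGGGGGCG. Sequences are written 5′ to 3′ on the strand of the gene, and capitals mark the matches. The windows are chr12:85473640-85473889 on the plus strand for Fos, chr7:19310046-19310295 on the minus strand for Fosb, chr15:101266596-101266845 on the plus strand for Nr4a1, chr7:28379229-28379478 on the minus strand for Zfp36 and chr17:26508473-26508722 on the minus strand for Dusp1.
Fos: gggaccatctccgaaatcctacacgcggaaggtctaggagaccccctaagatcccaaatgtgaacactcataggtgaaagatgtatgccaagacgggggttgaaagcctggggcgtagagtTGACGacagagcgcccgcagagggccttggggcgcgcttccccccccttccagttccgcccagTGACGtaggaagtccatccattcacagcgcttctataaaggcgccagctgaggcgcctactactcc
Fosb: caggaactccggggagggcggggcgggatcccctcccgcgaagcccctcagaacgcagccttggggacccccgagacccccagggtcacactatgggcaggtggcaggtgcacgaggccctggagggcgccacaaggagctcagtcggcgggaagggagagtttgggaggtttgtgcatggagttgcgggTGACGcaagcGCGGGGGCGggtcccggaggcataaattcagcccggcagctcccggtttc
Nr4a1: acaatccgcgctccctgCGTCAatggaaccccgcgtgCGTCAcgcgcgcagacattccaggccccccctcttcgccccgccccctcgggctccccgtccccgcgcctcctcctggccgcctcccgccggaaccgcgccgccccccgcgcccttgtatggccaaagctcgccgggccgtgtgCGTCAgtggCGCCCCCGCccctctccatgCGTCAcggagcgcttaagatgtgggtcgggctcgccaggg
Zfp36: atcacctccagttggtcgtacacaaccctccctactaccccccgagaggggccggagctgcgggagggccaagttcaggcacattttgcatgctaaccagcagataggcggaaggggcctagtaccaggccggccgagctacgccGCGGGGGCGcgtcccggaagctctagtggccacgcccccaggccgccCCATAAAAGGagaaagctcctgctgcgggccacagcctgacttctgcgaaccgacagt
Dusp1: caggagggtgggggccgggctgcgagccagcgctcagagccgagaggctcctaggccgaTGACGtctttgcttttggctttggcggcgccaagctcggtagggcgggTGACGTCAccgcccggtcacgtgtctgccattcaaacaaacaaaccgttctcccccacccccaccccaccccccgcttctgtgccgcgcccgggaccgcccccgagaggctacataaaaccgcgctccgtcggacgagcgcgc

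TGACG was found in 16 of the 31 members, 51.6%, beside 19.8% of all 27025 genes with a window. The full TGACGTCA was found in 3 (Maff, Dusp1 and Btg2), beside 1.77% of these genes, and TGANTCA in 2 (Zfp36l1 and Tnfaip3), beside 7.82%. A CArG box was found in 3 (Egr2, Dusp5 and Zfp36), beside 1.62% of all genes with a window, and GCGGGGGCG in 9, or 29% of the members, beside 2.93%. In Nr4a1, TGACG was read on the opposite strand 4 times, from 233 to 36 bases before the start. Among the 8 members with a window that were lower in ch+ than in ch-, 5 held TGACG and 4 held GCGGGGGCG, beside 16 and 9 of all 31. Of the same 8, 1 held TGACGTCA, 1 a CArG box and 0 TGANTCA. A match is a description of the letters and does not show that a factor binds there.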

How the data were processed

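The table that the authors deposited for these libraries is called normalized counts, but its values run from −2.33 to 22.44 and were read as regularized log2 values, although the methods of the paper speak of a log10 transformation. The design had assumed log2 of a normalized count plus 1, so the deposited values were used directly. According to the submitters, reads had been aligned to mm10 with STAR 2.5.1b, counted with RSEM 1.2.29 and normalized with DESeq2 1.10.1. The paper states a typical sequencing yield, but the depth of each library is unknown. All 21 value columns were matched to a library by the number in its title, with 0 columns left over, and 26686 of 26852 gene identifiers matched a symbol.

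Genes needed a mean of at least 3.32 over all libraries, which is log2 of 10 normalized counts, and 12976 were tested. A linear model with 4 groups was fitted with limma 3.58.1 in R 4.3.3 with a mean-variance trend, and a model with 7 groups was used for HL60 and ML1 apart. Tests were two-sided, and p-values were adjusted over all genes tested by the Benjamini-Hochberg method within each comparison. The scripts were tested on simulated data with known differences before use. Members with values in every library were picked within each role by a written rule, and further members are given by range. Python 3.11.15 and matplotlib 3.10.9 were used for mapping, promoters and figures. Promoter windows came from RefSeq on GRCm38.p6.

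The members and lists were chosen with earlier results of these data known. Alternatives were no filter or another filter, quantile normalization, rescaling of each library to the mean total, no variance trend, library weights, the compared groups alone, the model with 7 groups, an adjusted p under 0.05, a least difference of 1, each AML line with ctrl, and fits that left out 1 library. Rescaling without the ribosomal RNA gene was chosen after seeing the data. Tests on counts and another pseudocount were not run, because the values are already on the log2 scale.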

Additional observations from a re-analysis of the deposited data

Results flagged for a closer look

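Libraries far from the others of their group were searched for in 111 groups of values, and 4 were found, while chance alone flags about 1 in 20 groups. Jund stood at 9.17 in ML1 ch- 546, above the other ch- libraries at 8.32 to 8.51. Mafk stood at 7.17 in ML1 ch+ 538, above the others at 6.29 to 6.54. Egr3 stood at 3.80 in ML1 ch+ 539, below the others at 5.07 to 5.61. Nr4a1 stood at 9.76 in HL60 late 399, just below the other late libraries at 9.93 to 10.00. None of these members was called in a comparison that turned on the outlying library alone.

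Late, 13 members differed between HL60 and ML1 although both groups are called late. HL60 late minus ML1 late was −0.45 for Fos, −0.87 for Fosb, −1.91 for Fosl1, −0.93 for Jun, −0.89 for Atf3, −1.38 for Maff and −0.71 for Egr1. It was −0.97 for Klf6, 0.99 for Nr4a2, −0.93 for Ier2, −0.81 for Dusp1, −1.16 for Tnfaip3 and −0.64 for Myc. The label of the ML1 late libraries is doubtful, and the cause of these differences was not tested.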

How the results depend on the processing

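The number of members called was recomputed under each alternative. Of 187 counts, 138 stayed within 1.5 times the value given in the text. Of 712 differences of members, 552 kept direction and call, 159 lost the call and 1 was reversed. Fosl2 was the reversed member, at 0.15 in late against ctrl after rescaling to the mean library total.

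In late against ctrl, 31 members were called after rescaling to the mean total, 26 when the ribosomal RNA gene was left out of the total, and 5 at a least difference of 1, beside 15. Against ch+, where 15 were called, these counts were 34, 33 and 4, and with HL60 alone 8. Against ch-, where 17 were called, they were 28, 27 and 4. In HL60 late against ctrl 24 members were called after rescaling, beside 13, and in ML1 late 35, beside 19. The linear sums of the late libraries are smaller than those of ctrl, which rescaling turns into a shift of all genes.

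In ch+ against ctrl 4 members were called. Without a filter the count was 0, with quantile normalization 2, after rescaling 2, without a trend 1, with library weights 1, in the model with 7 groups 7, at an adjusted p under 0.05 1, and at a least difference of 1 it was 1. In ch- against ctrl 4 were called. After rescaling the count was 1, and 3 when the ribosomal RNA gene was left out of the total. Without a trend it was 2, with weights 2, with the compared groups alone 7, with 7 groups 9, and at a least difference of 1 it was 2. In HL60 ch- against ctrl, 7 became 3 after rescaling and 3 at an adjusted p under 0.05.

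In ch+ against ch-, 11 became 7 without a filter, 5 after rescaling, 0 at a least difference of 1 and 5 with HL60 alone. In HL60, 5 became 3 with quantile normalization, 3 after rescaling and 3 at an adjusted p under 0.05. In ML1, 10 became 6 after rescaling. Between HL60 late and ML1 late, 13 became 8 without a filter, 7 without a trend, 8 at an adjusted p under 0.05 and 3 at a least difference of 1.

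Leaving out 1 library gave 11 members (without ctrl 374) to 17 (without HL60 late 397) in late against ctrl, 1 (ctrl 374) to 5 (HL60 late 397) in ch+ against ctrl and 0 (ctrl 373) to 5 (ML1 late 583) in ch- against ctrl. The range was 9 (ML1 ch- 544) to 12 (ML1 late 583) in ch+ against ch-, 12 (ML1 late 583) to 19 (HL60 late 397) in late against ch+ and 15 (HL60 ch- 528) to 19 (HL60 late 397) in late against ch-. Against ctrl it was 8 (HL60 late 399) to 15 (ctrl 375) in HL60 late and 15 (ML1 late 583) to 19 (ctrl 375) in ML1 late. For ch+ it was 1 (HL60 ch+ 523) to 4 (ctrl 373) in HL60 and 2 (ctrl 374) to 6 (ctrl 373) in ML1. For ch- it was 1 (ctrl 373) to 5 (ctrl 374) in HL60 and 3 (ML1 ch- 544) to 6 (ctrl 375) in ML1. Between ch+ and ch- it was 3 (HL60 ch+ 524) to 5 (HL60 ch- 527) in HL60 and 8 (ML1 ch+ 539) to 10 (ML1 ch+ 538) in ML1. Between HL60 late and ML1 late it was 7 (ML1 late 583) to 11 (ML1 late 581), and between the lines in ch+, in ch- and in the difference of both it was 0 each time.

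No paired analysis was run, because nothing in the labels links a ch+ library to the ch- library of its marrow. Within each line the title numbers of ch+ and ch- libraries follow the same spacing. Pairs read from this order were not tested. Tests on counts and another pseudocount were not run. Where no reason is given, the cause of a change was not tested.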
